A study of Mus musculus with 18 samples.

Results

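The 9 genes described here encode ligands of the transforming growth factor beta (TGF-β) family, their receptors and the latent TGF-β binding proteins LTBP1 and LTBP2, in prostate tissue of TRAMP mice with and without changes in Elac2. They were chosen by symbol: the ligand genes Tgfb1, Tgfb2, Tgfb3 and Inhba, the receptor genes Tgfbr1, Tgfbr2 and Tgfbr3, and the latent binding protein genes Ltbp1 and Ltbp2. All 9 were found among the 55469 gene identifiers measured, each under 1 identifier, and all 9 were abundant enough to be tested in every comparison. ELAC2 is the enzyme RNase Z, which trims the trailing end of precursor transfer RNAs, and the comparisons ask how changes in it alter the prostate transcriptome on a tumour-prone background.

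Total RNA of the ventral and lateral prostate lobes was sequenced from 18 male mice of strain C56NL/6N, all of genotype TRAMP +/- and matched by age and litter, with 3 mice in each of 6 groups. TRAMP is a transgene in which the probasin promoter drives the SV40 T antigens in prostate epithelium, so the control mice also carry a tumour-forming transgene. WT-TRAMP mice are ELAC2+/+, KO-TRAMP mice are ELAC2-/- through Pb-Cre, which deletes exon 8 in prostate epithelium and should leave the gene intact in stroma and blood cells, and A537T-TRAMP mice are homozygous for ELAC2A537T in the whole body. Each line was sampled at 10 and at 30 weeks of age. Libraries are called by the numbers in the authors' tables. WT-TRAMP libraries are 1 to 3 at 10 weeks and 10 to 12 at 30 weeks, KO-TRAMP libraries 7 to 9 and 16 to 18, and A537T-TRAMP libraries 4 to 6 and 13 to 15.

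As background, TGF-β is secreted as a latent complex: the cleaved propeptide stays wrapped around the ligand and is bound to a latent TGF-β binding protein, which anchors the complex to fibrillin-rich matrix until integrins, proteases or thrombospondin free the ligand. The free ligand binds the type II receptor TGFBR2, which recruits and phosphorylates the type I receptor TGFBR1, and the type I kinase then phosphorylates SMAD2 and SMAD3, which enter the nucleus with SMAD4. Betaglycan, the product of Tgfbr3, is a co-receptor that presents TGF-β2 in particular. In prostate, the pathway is known for restraining epithelial growth and for driving matrix production by fibroblasts and smooth muscle.

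Values are the authors' normalized counts, in which each library's estimated gene counts were divided by 1 size factor, and they compare only within a table of 6 libraries. Divided by the smallest step of a library, the values are whole numbers, here called recovered counts, which sum to 9380174 to 14830104 per library. They are estimates that depend on the table: between the 2 tables of an age, the totals of a WT-TRAMP library nearly agree but only 30.9% to 37.6% of its detected genes have the same recovered count. Means are given ± SD with n = 3 libraries per group. A log2 fold change is the mean of the mutant minus that of WT-TRAMP after taking log2(normalized count + 1), each p comes from limma, and adjusted p-values (Benjamini-Hochberg, all genes tested) were read against a threshold of 0.05. The targeted gene did not separate the groups: log2 fold changes of Elac2 in KO-TRAMP were −0.22 (SE 0.14, adjusted p = 0.808) at 10 weeks and −0.19 (SE 0.14, adjusted p = 0.522) at 30 weeks, those in A537T-TRAMP were −0.09 (SE 0.16, adjusted p = 0.869) and 0.05 (SE 0.13, adjusted p = 0.961), and the groups overlapped in all 4 comparisons. The gene-level count takes in reads outside exon 8 and reads from stroma, and a substitution removes no reads, so it does not check the genotypes. All 9 luminal prostate markers were read in every library, but markers of other tissues differed within and between groups. As a share of normalized counts, 8 seminal vesicle genes took 9.05% of library 5 and 5.45% of library 13 but 0.000183% of library 1. The mean level of 8 neuroendocrine markers, on the log2(normalized count + 1) scale, was 10.14 and 9.48 in libraries 17 and 18 but 1.48 in library 16, the other KO-TRAMP library at 30 weeks. At 10 weeks the seminal vesicle markers had a median log2 fold change of 8.57 in A537T-TRAMP, where 8 of 8 had groups that did not overlap (13.4% of all genes tested), and of 4.77 in KO-TRAMP, where 4 of 8 did not overlap (12.0%). At 30 weeks the log2 fold changes of the 6 adipose tissue markers tested were below 0, with a median of −3.62 in A537T-TRAMP, where 6 of 6 did not overlap (13.4%), and of −3.34 in KO-TRAMP, where 5 of 6 did not overlap (20.2%) and 1 passed the threshold (0.0237% of all genes passed as lower). These shifts run beside every result of their comparison, and their part was not tested.

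None of the 9 genes passed the adjusted threshold in any comparison. In KO-TRAMP at 10 weeks, 0 of 9 passed (background over 15451 genes: 0.0129%), and 2 of 9 had an unadjusted limma p under 0.05 (background 6.64%). In A537T-TRAMP at 10 weeks, 0 of 9 passed (background over 15438 genes 0.00648%), and 3 of 9 had an unadjusted p under 0.05 (7.89%). In KO-TRAMP at 30 weeks, 0 of 9 passed (background over 16900 genes 0.213%), and 2 of 9 had an unadjusted p under 0.05 (13.5%). In A537T-TRAMP at 30 weeks, 0 of 9 and 0 of 16261 genes passed (0%), and 2 of 9 had an unadjusted p under 0.05 (7.21%). The 3 libraries of the mutant did not overlap the 3 of WT-TRAMP for 2, 3, 2 and 2 of the 9 genes in these comparisons, beside 12.0%, 13.4%, 20.2% and 13.4% of all genes tested. The genes without overlap were Tgfbr2 (lower) and Tgfbr3 (higher) in KO-TRAMP at 10 weeks, Tgfb2 and Tgfbr2 (lower) and Tgfbr3 (higher) in A537T-TRAMP at 10 weeks, Tgfb3 (higher) and Tgfbr3 (lower) in KO-TRAMP at 30 weeks, and Tgfb2 (lower) and Tgfbr3 (higher) in A537T-TRAMP at 30 weeks. DESeq2 called Tgfbr2 in KO-TRAMP at 10 weeks and Tgfb3 in KO-TRAMP at 30 weeks, beside 83 of 15451 and 805 of 16900 genes. It called none of the 9 in A537T-TRAMP, beside 148 of 15438 and 166 of 16261 genes, and edgeR called 0 of 9 throughout. The median log2 fold change of the 9 genes was 0.10, 0.07, 0.24 and 0.04, beside −0.01, −0.01, 0.01 and 0.00 over all genes. The 2 comparisons of an age share their WT-TRAMP mice, so the same direction in both is not independent.

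**Figure D1:**
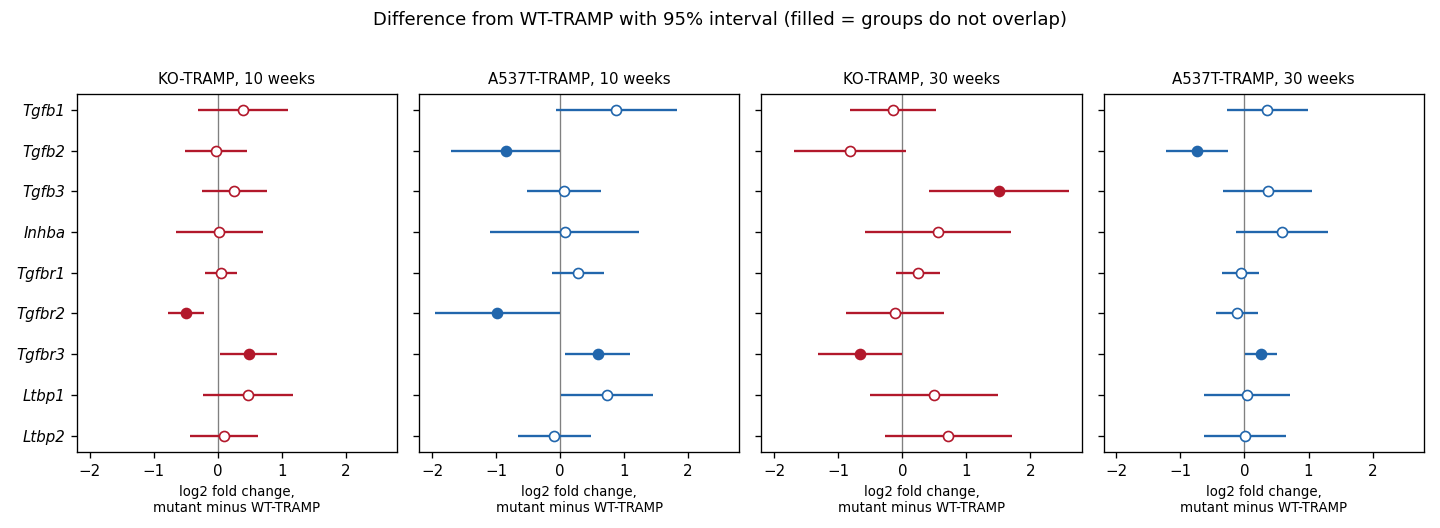
Log2 fold change (points) with its 95% interval (lines) of each of the 9 genes in the 4 comparisons, with 3 libraries against 3, mutant minus WT-TRAMP. Filled points mark genes whose groups did not overlap. The largest difference is Tgfb3 in KO-TRAMP at 30 weeks, 1.51, and Tgfb2 lies below 0 in all 4 panels, though in KO-TRAMP at 10 weeks its value of −0.03 turns to 0.01 with edgeR.

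The 9 genes lie on 8 chromosomes in GRCm38 and all are protein coding. The ligand genes are Tgfb1 (ENSMUSG00000002603.15, chromosome 7, 25687002 to 25705077, plus strand), Tgfb2 (ENSMUSG00000039239.14, chromosome 1, 186622792 to 186705989, minus strand), Tgfb3 (ENSMUSG00000021253.7, chromosome 12, 86056745 to 86079041, minus strand) and Inhba (ENSMUSG00000041324.14, chromosome 13, 16011851 to 16031621, plus strand). The receptor genes are Tgfbr1 (ENSMUSG00000007613.15, chromosome 4, 47353222 to 47414931, plus strand), Tgfbr2 (ENSMUSG00000032440.13, chromosome 9, 116084293 to 116175360, minus strand) and Tgfbr3 (ENSMUSG00000029287.14, chromosome 5, 107106570 to 107289629, minus strand). The latent binding protein genes are Ltbp1 (ENSMUSG00000001870.16, chromosome 17, 75005568 to 75392512, plus strand) and Ltbp2 (ENSMUSG00000002020.15, chromosome 12, 84783212 to 84876532, minus strand).

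The 250 bases before the RefSeq start (GRCm38.p6) are shown for Tgfb2 and Tgfbr2, the ligand and the receptor whose levels were below WT-TRAMP without overlap in 2 comparisons each. Capitals mark the letters of a searched motif on either strand.
Tgfb2 (chr1:186705990-186706239, minus strand): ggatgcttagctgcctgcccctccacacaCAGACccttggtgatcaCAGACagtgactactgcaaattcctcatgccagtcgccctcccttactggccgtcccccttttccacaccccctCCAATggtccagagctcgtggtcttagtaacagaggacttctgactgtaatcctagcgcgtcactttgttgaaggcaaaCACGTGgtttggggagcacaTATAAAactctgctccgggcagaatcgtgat
Tgfbr2 (chr9:116175364-116175613, minus strand): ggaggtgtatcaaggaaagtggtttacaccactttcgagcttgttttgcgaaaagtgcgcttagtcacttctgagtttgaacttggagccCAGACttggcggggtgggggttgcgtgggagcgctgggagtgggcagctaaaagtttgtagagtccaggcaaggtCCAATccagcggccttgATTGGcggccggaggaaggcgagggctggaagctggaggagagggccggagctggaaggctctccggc
The 6 motifs searched were the SMAD box CAGAC, the cyclic AMP response element TGACGTCA, the E-box CACGTG, the GC box GGGCGG, the CCAAT box and the TATA box TATAAA. Tgfb2 holds 2 SMAD boxes, 1 CCAAT box, an E-box that begins 51 bases before the start and a TATA box that begins 31 bases before it, while Tgfbr2 holds 1 SMAD box, 2 CCAAT boxes and no TATA box in this window. Of all 32851 RefSeq windows of this length, 42.2% hold a SMAD box, 33.8% a CCAAT box, 12.4% a TATA box, 6.0% an E-box and 1.5% the cyclic AMP response element. The window of Tgfb1 holds 5 GC boxes, a motif that 32.7% of windows hold, and 1 of the 2 windows of Ltbp1 holds the cyclic AMP response element. A match is a run of letters and not a shown binding site. Windows were at hand for 7 of the 9 genes, not for Tgfb3 and Tgfbr3.

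Per kilobase of exon, the receptors were read at the highest levels and Inhba at the lowest. In WT-TRAMP at 10 weeks, in the table shared with KO-TRAMP, the normalized count per kilobase was 256 ± 33.6 for Tgfbr2, 135 ± 35.2 for Tgfbr3 and 109 ± 6.42 for Tgfbr1. The ranges of Tgfbr3 and Tgfbr1 overlapped, while Tgfbr2 lay above both. Among the ligands the level per kilobase was 65.6 ± 10.1 for Tgfb2 and 29.8 ± 7.53 for Tgfb3, each apart from its neighbours in the order. Ltbp1 (10.95 ± 4.71), Ltbp2 (10.6 ± 1.06), Tgfb1 (8.03 ± 1.97) and Inhba (5.69 ± 1.68) followed, with each overlapping the next. WT-TRAMP at 30 weeks had the order Tgfbr2, Tgfbr3, Tgfbr1, Tgfb2, Tgfb3, Ltbp2, Ltbp1, Tgfb1 and Inhba in both tables, with the 3 receptors overlapping one another in turn.

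KO-TRAMP at 30 weeks was the only group in which the range of a ligand met that of a receptor. There Tgfb3 was at 111 ± 54.5 per kilobase and its range overlapped that of Tgfbr3 at 115 ± 40.4, while in the other 5 groups every receptor library lay above every Tgfb3 library. Tgfb1, often treated as the main form of the family, was the lowest of the 3 TGF-β genes in all 6 groups. At 8.03 ± 1.97 per kilobase in WT-TRAMP at 10 weeks it was read below Tgfb2 and Tgfb3 in every library. The recovered counts per library ranged from 25 to 90 for Tgfb1 and 14 to 87 for Inhba, and from 409 to 2629 for Tgfbr2, and the first 2 rest on the fewest counts of the 9 genes.

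**Figure D2:**
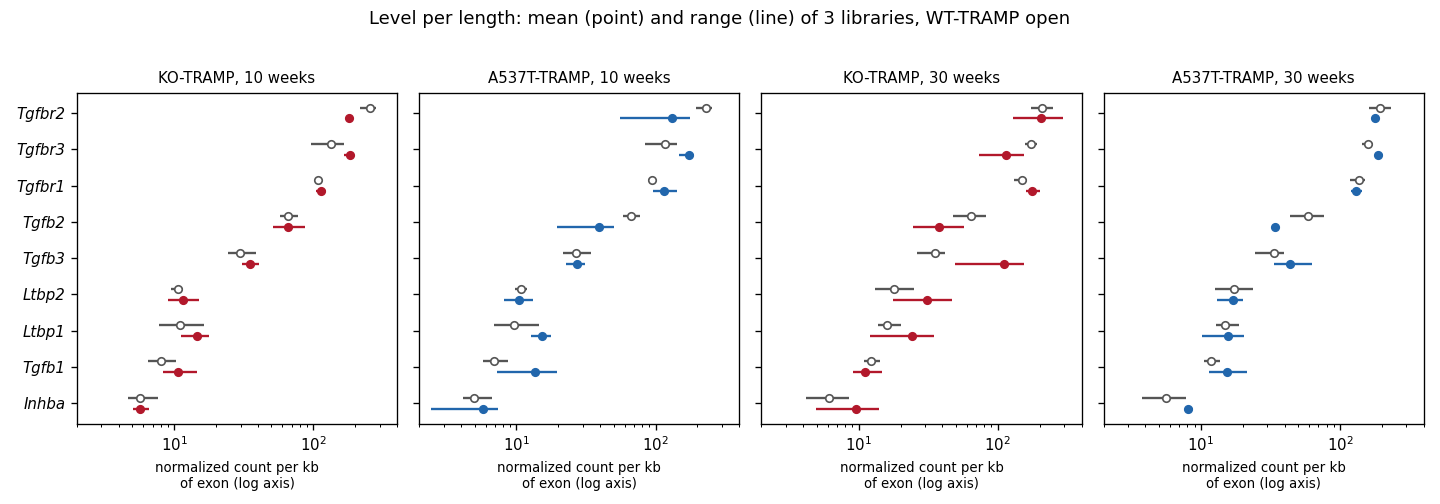
Normalized count per kilobase of exon (log axis) of each gene in the 4 tables, with the mean (points) and range (lines) of 3 libraries in each group, WT-TRAMP open and the mutant line filled. Receptors stand at the top and Inhba at the bottom in every table, and Tgfb3 in KO-TRAMP at 30 weeks reaches the range of Tgfbr3.

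Of the ligands, Tgfb2 lay lowest against WT-TRAMP in A537T-TRAMP, at both ages. This form is known for roles in development and binds the type II receptor well only with betaglycan present. At 30 weeks Tgfb2 read 193, 206 and 197 in A537T-TRAMP libraries 13, 14 and 15 against 447, 326 and 254 in WT-TRAMP libraries 10, 11 and 12. The 3 mutant values lay close together and below every WT-TRAMP value, which themselves spanned a wide range. This gave a log2 fold change of −0.74 (SE 0.20, 95% interval −1.22 to −0.26, unadjusted p = 0.00798, adjusted p = 0.569). At 10 weeks Tgfb2 read 282, 114 and 289 in libraries 4, 5 and 6 against 361, 450.2 and 337 in libraries 1, 2 and 3, again without overlap, a log2 fold change of −0.85 (SE 0.36, 95% interval −1.70 to 0.00, unadjusted p = 0.0495, adjusted p = 0.600). Without library 5, the lowest of the 6, the log2 fold change was −0.41.

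In KO-TRAMP, Tgfb2 did not differ by more than the spread at 10 weeks, with 298, 334 and 504 against 358, 446 and 336 and a log2 fold change of −0.03 (95% interval −0.52 to 0.45). At 30 weeks it read 329, 141 and 182 in libraries 16, 17 and 18 against 480.1, 353 and 275, so library 16 lay within the WT-TRAMP range and the other two below it. The log2 fold change was −0.82 (SE 0.36, 95% interval −1.69 to 0.06, unadjusted p = 0.0630, adjusted p = 0.381). Without library 16 it was −1.16, with an adjusted p of 0.0401. In that fit 3064 genes passed the threshold, against 36 with all 6 libraries.

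Tgfb3 showed the largest difference of the 9 genes, in KO-TRAMP at 30 weeks. TGF-β3 is the form best known from palate fusion and is made largely by mesenchymal cells. It read 168, 519 and 439.7 in KO-TRAMP libraries 16, 17 and 18 against 141, 89.3 and 129.9 in WT-TRAMP. All 3 KO-TRAMP libraries lay above the WT-TRAMP range, library 16 just above it and libraries 17 and 18 far above it. The means were 375 ± 184 and 120.1 ± 27.2, a log2 fold change of 1.51 (SE 0.45, 95% interval 0.41 to 2.61, unadjusted p = 0.0152, adjusted p = 0.327). Without library 16 the log2 fold change was 2.01 with an adjusted p of 0.0108, in the fit where 3064 genes passed. By DESeq2 on all 6 libraries it was 1.64 with an adjusted p of 0.0191, whereas edgeR gave 1.65 with an adjusted p of 0.285.

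The 2 libraries with high Tgfb3 were also the 2 with high neuroendocrine markers. The 8 markers (Chga, Chgb, Syp, Insm1, Scg2, Scg3, Foxa2 and Ncam1) took 0.132% and 0.0824% of the normalized counts of libraries 17 and 18, with none at 0, and 0.00261% of library 16, with 4 at 0. In WT-TRAMP they took 0.0277%, 0.0028% and 0.0143% of libraries 10, 11 and 12. The part of these cells in the Tgfb3 result was not tested. The mean level of the 10 fibroblast markers was above WT-TRAMP in all 3 KO-TRAMP libraries, at 9.23, 9.57 and 9.55 against 8.30, 7.92 and 8.03 in WT-TRAMP. Of the 10, 8 had groups that did not overlap (20.2% of all genes tested). Median log2 fold changes in this comparison were 1.02 for the 10 macrophage markers, 0.97 for the 8 endothelium markers and 1.92 for the 8 skeletal muscle markers. Groups did not overlap for 7, 6 and 3 of them, beside 20.2% of all genes. Past the threshold were 2 macrophage and 2 skeletal muscle markers, beside 0.213% of all genes. The 9 luminal epithelium markers had a median of −0.93, with 4 lower and 1 higher without overlap, beside 20.2% of all genes. The part of all these cells and of the lower adipose markers in the Tgfb3 result was not tested either. In bulk tissue a change in the number of cells of a type and a change in RNA per cell cannot be told apart.

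**Figure D3:**
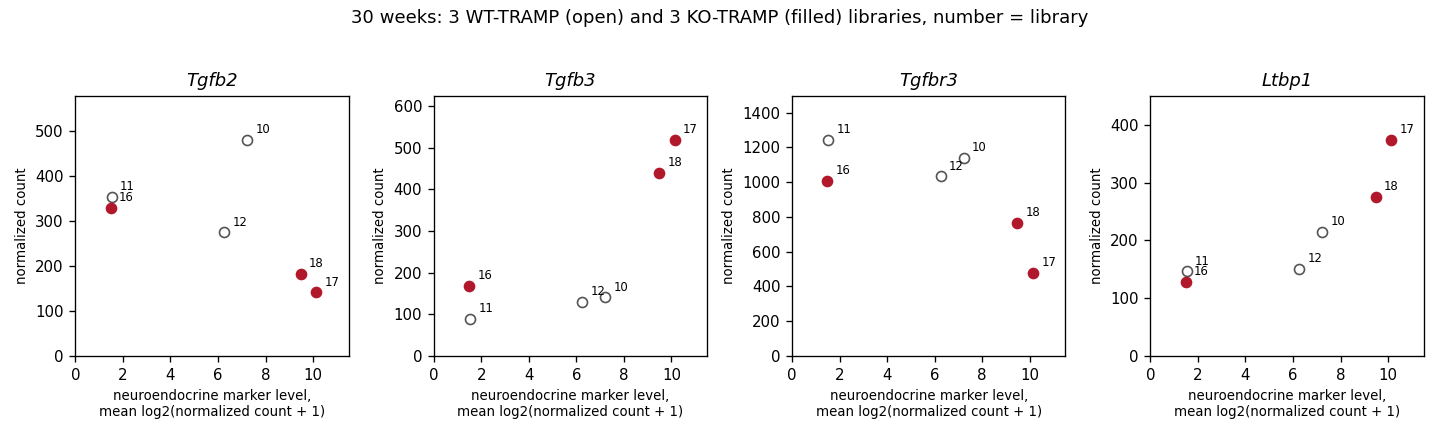
Normalized count of Tgfb2, Tgfb3, Tgfbr3 and Ltbp1 against the mean level of 8 neuroendocrine markers in the 6 libraries of WT-TRAMP (open) and KO-TRAMP (filled) at 30 weeks, with library numbers. Libraries 17 and 18 have the highest marker levels, the lowest Tgfb2 and Tgfbr3 and the highest Tgfb3 and Ltbp1, and library 16 lies beside WT-TRAMP library 11 on the marker axis.

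In the other comparisons Tgfb3 overlapped WT-TRAMP. Its log2 fold change was 0.26 (95% interval −0.25 to 0.77) in KO-TRAMP and 0.06 (95% interval −0.52 to 0.64) in A537T-TRAMP at 10 weeks. In A537T-TRAMP at 30 weeks it read 214, 113 and 119.6 against 133, 83.4 and 122, with library 13 above the WT-TRAMP range and the other two within it, and a log2 fold change of 0.37 (95% interval −0.33 to 1.06) that was 0.08 without library 13.

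Tgfb1, the form made by many immune, stromal and epithelial cells, overlapped WT-TRAMP in all 4 comparisons. In A537T-TRAMP at 10 weeks it read 36.6, 98.4 and 71.1 against 44.2, 28.8 and 31.3, with libraries 5 and 6 above the WT-TRAMP range and library 4 inside it. The log2 fold change there was 0.88 (SE 0.40, 95% interval −0.07 to 1.82, unadjusted p = 0.0647, adjusted p = 0.600). Libraries 5 and 6 held 9.05% and 1.25% of counts from seminal vesicle genes against 0.0487% in library 4, and the part of that tissue was not tested. The log2 fold change was 0.57 without library 5. The other log2 fold changes of Tgfb1 were 0.39 (95% interval −0.31 to 1.09) in KO-TRAMP at 10 weeks, −0.15 (95% interval −0.81 to 0.52) in KO-TRAMP at 30 weeks and 0.35 (95% interval −0.28 to 0.99) in A537T-TRAMP at 30 weeks. They moved to 0.15 without library 7, to −0.36 without library 16 and to 0.10 without library 14.

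Inhba encodes the activin A subunit, whose dimer signals through SMAD2 and SMAD3 as TGF-β does but through activin receptors. It was read at low counts and overlapped WT-TRAMP in all 4 comparisons. At 30 weeks it read 89.5, 31.3 and 62.7 in KO-TRAMP and 55.7, 50.1 and 49.8 in A537T-TRAMP, against WT-TRAMP values of 26.9 to 54.7 and 24.2 to 50.2 in the respective tables. The 3 A537T-TRAMP libraries lay close together, libraries 14 and 15 at the top of the WT-TRAMP range and library 13 above it, while KO-TRAMP library 17 lay within it and libraries 16 and 18 above it. The log2 fold changes were 0.56 (95% interval −0.58 to 1.70) and 0.58 (95% interval −0.14 to 1.30). Leaving out library 16 gave 0.23 and leaving out library 17 gave 0.97 for KO-TRAMP, while leaving out library 10 gave 0.34 for A537T-TRAMP. At 10 weeks they were 0.02 (95% interval −0.66 to 0.70) in KO-TRAMP and 0.07 (95% interval −1.09 to 1.23) in A537T-TRAMP.

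**Figure D4:**
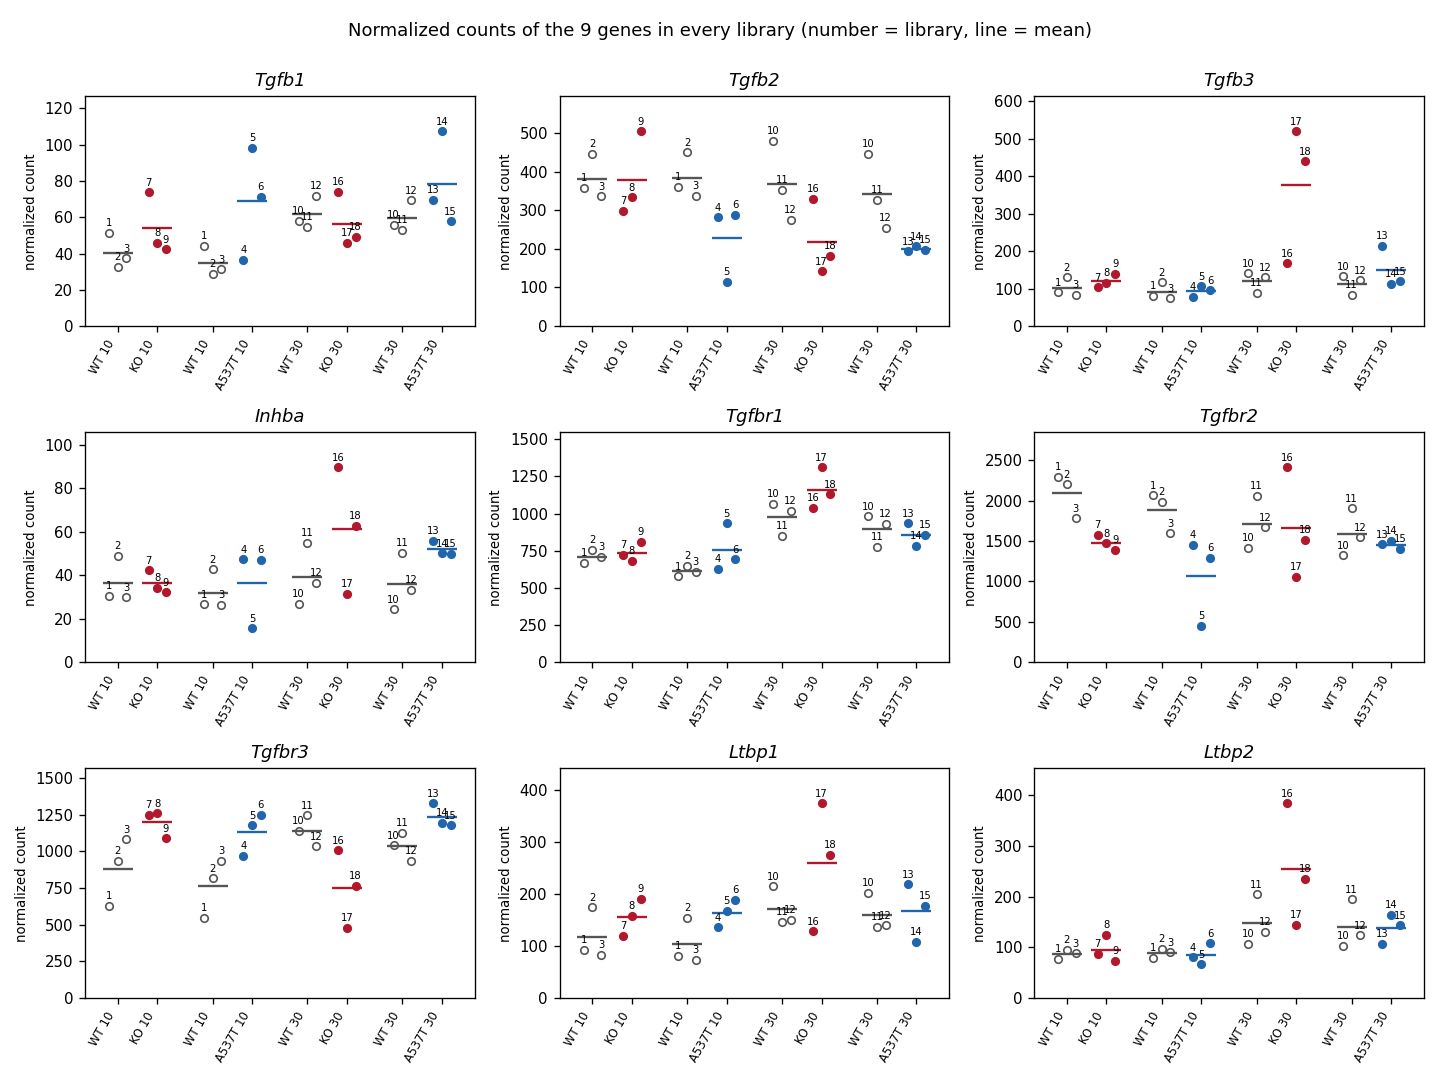
Normalized count of each of the 9 genes in every library, in 9 panels, with WT-TRAMP open, KO-TRAMP in red, A537T-TRAMP in blue, lines for the group means and library numbers beside the points. WT-TRAMP libraries appear once in each table of their age. Tgfbr3 lies above WT-TRAMP in both lines at 10 weeks and in A537T-TRAMP at 30 weeks and below it in KO-TRAMP at 30 weeks.

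Among the receptors, Tgfbr3 had groups that did not overlap in all 4 comparisons, in 3 of them higher and in 1 lower than WT-TRAMP. In KO-TRAMP at 10 weeks Tgfbr3 read 1249, 1257 and 1088 in libraries 7, 8 and 9 against 629, 936 and 1080.2 in libraries 1, 2 and 3. The lowest KO-TRAMP value was just above the highest WT-TRAMP value, and WT-TRAMP library 1 lay well below the other two. The log2 fold change was 0.48 (SE 0.19, 95% interval 0.03 to 0.92, unadjusted p = 0.0382, adjusted p = 0.735), and it was 0.25 without library 1. In A537T-TRAMP at 10 weeks Tgfbr3 read 968, 1176 and 1246 against 546, 815 and 935, a log2 fold change of 0.59 (SE 0.22, 95% interval 0.08 to 1.10, unadjusted p = 0.0295, adjusted p = 0.600) that was 0.36 without library 1.

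At 30 weeks Tgfbr3 lay on opposite sides of WT-TRAMP in the mutant lines. In A537T-TRAMP it read 1326, 1191 and 1176 against 1039, 1126 and 934, with all mutant values above the WT-TRAMP values and a log2 fold change of 0.25 (SE 0.10, 95% interval 0.01 to 0.50, unadjusted p = 0.0444, adjusted p = 0.687). In KO-TRAMP it read 1007, 479.6 and 764 against 1140.3, 1245 and 1033. Library 16 lay just under the lowest WT-TRAMP library, and libraries 17 and 18, those with the high neuroendocrine markers, lay far below it. The difference on the log2 scale was −0.66 (SE 0.27, 95% interval −1.32 to 0.00, unadjusted p = 0.0497, adjusted p = 0.369). Without library 16 it was −0.91 with an adjusted p of 0.0423, in the fit where 3064 genes passed. Without library 17 it was −0.37. The luminal epithelium markers had mean levels of 11.31, 10.35 and 10.84 in the KO-TRAMP libraries against 11.41, 11.56 and 11.56 in WT-TRAMP, and their part in the Tgfbr3 result was not tested.

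Tgfbr2, the receptor that binds the ligand first, was lower in both lines at 10 weeks without overlap. In KO-TRAMP it read 1575, 1474 and 1395 in libraries 7, 8 and 9 against 2299, 2205 and 1782 in libraries 1, 2 and 3. The means were 1481 ± 90.2 and 2095 ± 275, with a log2 fold change of −0.49 (SE 0.12, 95% interval −0.77 to −0.22, unadjusted p = 0.00331, adjusted p = 0.659). By DESeq2 the same log2 fold change, −0.49, had an adjusted p of 0.0425. In A537T-TRAMP it read 1457, 452 and 1293 against 2068, 1985 and 1596, a log2 fold change of −0.98 (SE 0.42, 95% interval −1.96 to 0.00, unadjusted p = 0.0509, adjusted p = 0.600). Library 5 was far below the other 2 A537T-TRAMP libraries, and without it the log2 fold change was −0.45.

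Library 5 was also the library with the largest share of counts from seminal vesicle genes and the smallest from luminal prostate genes, 0.193% against 3.42% and 1.66% in libraries 4 and 6. The mean level of the 10 smooth muscle markers was higher in all mutant libraries at 10 weeks, at 8.75, 9.40 and 9.36 in KO-TRAMP and 7.77, 8.55 and 8.42 in WT-TRAMP. By single gene, 6 of these 10 were free of overlap in KO-TRAMP (12.0% of all genes tested) and all 10 in A537T-TRAMP (13.4%). None passed the threshold in either line (0.0129% and 0.00648% of all genes). In A537T-TRAMP the mean levels were 9.08, 10.65 and 9.73 against 7.59, 8.37 and 8.22. The part of this shift in the Tgfbr2 results was not tested. At 30 weeks Tgfbr2 overlapped WT-TRAMP in both lines, with 2413, 1053 and 1514 in KO-TRAMP and 1458, 1499 and 1404 in A537T-TRAMP, and log2 fold changes of −0.11 (95% interval −0.88 to 0.65) and −0.12 (95% interval −0.44 to 0.21).

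Tgfbr1, the type I kinase, had the narrowest log2 fold changes of the 9 genes. Its groups overlapped in all 4 comparisons, and its log2 fold changes were 0.05 (95% interval −0.20 to 0.30) and 0.28 (95% interval −0.12 to 0.68) at 10 weeks and 0.24 (95% interval −0.10 to 0.59) and −0.06 (95% interval −0.35 to 0.23) at 30 weeks in KO-TRAMP and A537T-TRAMP. In A537T-TRAMP at 10 weeks it read 629, 934 and 693 against 577, 649 and 607, with library 5 again apart, here above the others, and without it the log2 fold change was 0.11. In KO-TRAMP at 30 weeks it read 1038, 1311 and 1129.95 against 1068, 850.3 and 1018, with libraries 17 and 18 above WT-TRAMP.

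Of the latent binding proteins, Ltbp1, which carries TGF-β into the matrix, read higher on average in both lines at 10 weeks but overlapped WT-TRAMP in every comparison. It read 136, 168 and 189 in A537T-TRAMP against 81.9, 154 and 73.7, with a log2 fold change of 0.73 (SE 0.31, 95% interval 0.01 to 1.45, unadjusted p = 0.0478, adjusted p = 0.600). WT-TRAMP library 2 lay among the mutant libraries and its 2 fellows below them. In KO-TRAMP at 10 weeks it read 119.6, 159 and 191, a log2 fold change of 0.47 (95% interval −0.23 to 1.17). Leaving out library 3 gave 0.27 and leaving out library 2 gave 0.80. At 30 weeks it read 129, 375 and 276 in KO-TRAMP against 215, 147 and 150.5, with libraries 17 and 18 above and library 16 below WT-TRAMP, a log2 fold change of 0.49 (95% interval −0.51 to 1.49). Leaving out library 17 gave 0.16 and leaving out library 16 gave 0.93. In A537T-TRAMP at 30 weeks the log2 fold change was 0.04 (95% interval −0.63 to 0.71).

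Ltbp2 binds fibrillin but, unlike its relatives, does not bind latent TGF-β. At 30 weeks in KO-TRAMP it read 384, 145 and 235 in libraries 16, 17 and 18 against 107, 204 and 131, so that library 16 was the highest, the reverse of the order for Ltbp1 and Tgfb3. This gave a log2 fold change of 0.72 (95% interval −0.27 to 1.72). Leaving out library 16 gave 0.37 and leaving out library 17 gave 1.07. The log2 fold change was 0.10 (95% interval −0.44 to 0.63) in KO-TRAMP and −0.09 (95% interval −0.65 to 0.48) in A537T-TRAMP at 10 weeks and 0.01 (95% interval −0.64 to 0.65) in A537T-TRAMP at 30 weeks, each with overlap.

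An interaction term over the 12 libraries of a line asked whether its difference from WT-TRAMP was the same at both ages. No gene passed in KO-TRAMP (0 of 9, background 0% of 16431) or in A537T-TRAMP (0 of 9, background 0% of 15941). In KO-TRAMP 2 of 9 had an unadjusted p under 0.05, beside 13.1% of all genes. Tgfbr3 lay above WT-TRAMP at 10 weeks and below it at 30 weeks, a difference between the 2 log2 fold changes of −1.14 (SE 0.36, 95% interval −1.93 to −0.35, unadjusted p = 0.00884, adjusted p = 0.282). For Tgfb3 that difference was 1.25 (SE 0.53, 95% interval 0.09 to 2.42, unadjusted p = 0.0372, adjusted p = 0.362). Without library 16 both passed, at −1.38 with an adjusted p of 0.0233 for Tgfbr3 and 1.75 with an adjusted p of 0.0140 for Tgfb3. In that fit 1944 genes passed, against 0 with all 12 libraries. In A537T-TRAMP 0 of 9 had an unadjusted p under 0.05, beside 6.36% of all genes, and the widest difference was Tgfbr2 at 0.86 (SE 0.49, 95% interval −0.21 to 1.94, unadjusted p = 0.105, adjusted p = 0.721), which was 0.33 without library 5.

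The rest of the pathway was followed in 66 further genes: 14 of latency and activation, 13 of activin and related ligands, receptors and antagonists, 20 SMADs and their regulators and 23 target genes, of which Smad7, Skil, Pmepa1 and Thbs1 are in 2 lists. These lists were chosen with earlier results of these data known. Only KO-TRAMP at 30 weeks had any past the adjusted threshold, where 4 of the 65 tested rose and none fell (background 0.189% higher and 0.0237% lower). In KO-TRAMP at 10 weeks, A537T-TRAMP at 10 weeks and A537T-TRAMP at 30 weeks 0 of 62, 0 of 62 and 0 of 63 passed by limma. Of the genes named below, DESeq2 on recovered counts called the same 4 in KO-TRAMP at 30 weeks, and Pmepa1 and Skil there (805 of all genes). It also called Tagln and Acta2 in KO-TRAMP at 10 weeks (83 of all genes) and Fbn1, Postn and Tagln in A537T-TRAMP at 10 weeks (148). In A537T-TRAMP at 30 weeks it called Col1a1 and Lox (166 of all genes), while edgeR called none in any comparison. Counted at an unadjusted p under 0.05, 10 were higher and 3 lower in KO-TRAMP at 10 weeks (background 3.71% and 2.93%), and 18 higher and 1 lower in A537T-TRAMP at 10 weeks (5.07% and 2.82%). At 30 weeks 22 were higher and 1 lower in KO-TRAMP (7.70% and 5.84%), and 11 higher and 2 lower in A537T-TRAMP (3.98% and 3.23%). Their median log2 fold changes were 0.07, 0.28, 0.39 and 0.09 in this order.

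The 4 genes that rose in KO-TRAMP at 30 weeks encode matrix proteins. Fbn1, fibrillin-1, on whose microfibrils latent TGF-β is held, read 1357, 1183 and 1182 against 396, 252 and 356, a log2 fold change of 1.91 (SE 0.19, adjusted p = 0.0415). Col1a1, a chain of type I collagen, read 2762, 1690.3 and 2104 against 542, 651 and 571, a log2 fold change of 1.87 (SE 0.20, adjusted p = 0.0415). Tgfbi, a matrix protein named for its induction by TGF-β, read 503, 366 and 404 against 132, 152 and 144, a log2 fold change of 1.56 (SE 0.16, adjusted p = 0.0415). Fn1, fibronectin, read 3237, 3527 and 3412 against 1787, 1714 and 1475, a log2 fold change of 1.04 (SE 0.11, adjusted p = 0.0415). In each, all 3 KO-TRAMP libraries lay far above WT-TRAMP, and library 16, with few neuroendocrine counts, was the highest of the 3 for Fbn1, Col1a1 and Tgfbi and the lowest for Fn1.

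DESeq2 gave these 4 genes adjusted p-values of 5.8e-15 (Fbn1), 2.0e-13 (Col1a1), 9.3e-11 (Tgfbi) and 1.3e-14 (Fn1), in a fit where 805 genes passed. By limma their calls lie near the threshold, and with edgeR each had an adjusted p of 0.0508. Leaving out library 10, 11, 12 or 18 ended all 4 calls and leaving out library 17 ended those of Fbn1, Tgfbi and Fn1, while over all 6 such fits the log2 fold changes were 1.72 to 2.04 for Fbn1, 1.68 to 2.04 for Col1a1, 1.43 to 1.66 for Tgfbi and 0.95 to 1.09 for Fn1. The 10 fibroblast markers, which include Col1a1, had a median log2 fold change of 1.50 in the same comparison, with 8 of 10 without overlap (20.2% of all genes). The macrophage, endothelium and skeletal muscle lists there also had medians above 0, as given for Tgfb3, as did the neuroendocrine (1.54) and basal epithelium (0.69) lists. The adipose and luminal epithelium (−0.93) lists had medians below 0, and the part of any of these cells was not tested. In A537T-TRAMP at 30 weeks Col1a1 read 1037, 1226 and 1114 against 539.6, 643 and 564, without overlap, at 0.95 (SE 0.11, adjusted p = 0.137). Without library 11 the log2 fold change was 1.02 with an adjusted p of 0.0307, in a fit where 145 genes passed. The fibroblast markers had a median of 0.82 in that line at 30 weeks, with 3 of 10 without overlap (13.4% of all genes). Their part was not tested.

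In the latency and activation list, 1 of 14 rose in KO-TRAMP at 30 weeks (0.189% of all genes), which is Fbn1. In A537T-TRAMP the same gene read 395, 398 and 393 against 197, 213 and 212 at 10 weeks and 632, 425 and 442 against 372, 235 and 331 at 30 weeks, with log2 fold changes of 0.93 (SE 0.13, adjusted p = 0.458) and 0.68 (SE 0.22, adjusted p = 0.666) and no overlap at either age. The fibroblast markers had medians of 0.67 and 0.82 in these comparisons, and their part was not tested. Also without overlap were Emilin1, a matrix inhibitor of TGF-β maturation, at 0.78 (SE 0.21, adjusted p = 0.600) in A537T-TRAMP at 10 weeks, and Nrros, which tethers latent TGF-β on macrophages and microglia, at 0.87 (SE 0.28, adjusted p = 0.666) in A537T-TRAMP at 30 weeks. In KO-TRAMP at 10 weeks the smallest p-values in each direction were those of Ltbp4 (log2 fold change 0.70, SE 0.30, adjusted p = 0.742) and Itgb8 (log2 fold change 0.45, SE 0.27, adjusted p = 0.802) above and Thbs1 (−0.15) and Itgav (−0.05) below, all with overlap. Thbs1 and Itgb5 in A537T-TRAMP at 10 weeks (−0.42 and −0.04) and Ltbp3 and Furin in A537T-TRAMP at 30 weeks (−0.32 and −0.10) also overlapped WT-TRAMP.

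Among the 13 activin and related genes, 11 or 12 were tested in each comparison and none passed. The type II activin receptor Acvr2a lay below WT-TRAMP without overlap in 3 comparisons: means of 559.9 ± 33.1 against 755 ± 131 in KO-TRAMP at 10 weeks (log2 fold change −0.42, SE 0.14, adjusted p = 0.716), 488, 361 and 449 against 612, 800.3 and 584 in A537T-TRAMP at 10 weeks (log2 fold change −0.62, SE 0.18, adjusted p = 0.600) and 467, 427 and 463 against 583, 513 and 553 in A537T-TRAMP at 30 weeks (log2 fold change −0.28, SE 0.10, adjusted p = 0.677). Acvrl1, the type I receptor of endothelium, lay above WT-TRAMP without overlap at 10 weeks in KO-TRAMP (log2 fold change 1.03, SE 0.41, adjusted p = 0.734) and A537T-TRAMP (log2 fold change 1.28, SE 0.33, adjusted p = 0.600). For KO-TRAMP the 7 endothelium markers tested there had a median log2 fold change of 0.56, and 1 lacked overlap, beside 12.0% of all genes. For A537T-TRAMP their median was 1.10, and 3 of 7 lacked overlap, beside 13.4% of all genes. The part of these markers in the Acvrl1 values was not tested. Fst, the activin-binding protein follistatin, was above without overlap in KO-TRAMP at 10 weeks (log2 fold change 0.50, SE 0.15, adjusted p = 0.716) and A537T-TRAMP at 30 weeks (log2 fold change 0.78, SE 0.19, adjusted p = 0.459), where its relative Fstl3 stood at 1.12 (SE 0.40, adjusted p = 0.673) and the type I receptor Acvr1c at −0.49 (SE 0.20, adjusted p = 0.684). In KO-TRAMP at 30 weeks the smallest p-values were those of Eng, the endothelial co-receptor endoglin (log2 fold change 0.86, SE 0.21, adjusted p = 0.281), and Inhbb, the activin B subunit (log2 fold change 0.83, SE 0.25, adjusted p = 0.327), and no tested gene of this list lay below 0. All 8 endothelium markers were also above 0 in this comparison, with a median of 0.97, and their part in the Eng value was not tested. Acvr1, a type I receptor of activins and bone morphogenetic proteins, stood at −0.39 and −0.61 and Acvr2b at 0.84 at 10 weeks, with adjusted p-values of 0.742, 0.600 and 0.603.

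None of the 20 SMADs and regulators passed. In KO-TRAMP at 30 weeks, Pmepa1, an inhibitor induced by the pathway, read 192, 223 and 209.9 against 83.9, 128 and 96.9 (log2 fold change 1.03, SE 0.20, adjusted p = 0.182) and Skil, a SMAD co-repressor, read 983, 1175 and 1155 against 725, 786 and 727 (log2 fold change 0.56, SE 0.11, adjusted p = 0.196). Both were above WT-TRAMP in all 3 libraries. Smad3 there read 715, 358 and 397 against 546, 745 and 695, so that library 16 lay with WT-TRAMP and libraries 17 and 18 below it (log2 fold change −0.49, SE 0.29, adjusted p = 0.444), and Ski, another co-repressor, lay below WT-TRAMP without overlap at −0.34. Without library 16, Pmepa1 (1.09), Skil (0.64) and Smad3 (−0.80) each had an adjusted p below the threshold, the largest being 0.0337, as did Eng (0.95) and Inhbb (1.05), the larger being 0.0462. In that fit 3064 genes passed, against 36 with all libraries. Smad4, the partner of the activated SMADs, read 1343, 1042 and 1429 against 1538, 1472 and 1793 in A537T-TRAMP at 10 weeks without overlap (log2 fold change −0.34, SE 0.16, adjusted p = 0.600) and stood at −0.29 (SE 0.12, adjusted p = 0.742) in KO-TRAMP with overlap. Smad6, an inhibitory SMAD, read 6.51, 50.8 and 49.3 against 4.02, 4.61 and 6.06 in A537T-TRAMP at 10 weeks (log2 fold change 2.21, SE 0.82, adjusted p = 0.600). In this comparison it was high only in the 2 libraries with over 1% of counts from seminal vesicle genes, and the part of that tissue was not tested. The remaining named genes of this list were Pmepa1 (0.94) and Tgif1 (−0.33) in A537T-TRAMP at 10 weeks, Tgfb1i1 (0.73), Bambi (0.54) and Usp15 (−0.19) in KO-TRAMP at 10 weeks, and Smurf2 (0.16), Pmepa1 (0.34), Smad2 (−0.28) and Ppm1a (−0.12) in A537T-TRAMP at 30 weeks, with adjusted p-values of 0.600 to 0.842.

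Of the 23 target genes, 3 rose in KO-TRAMP at 30 weeks (Col1a1, Tgfbi and Fn1), beside 0.189% of all genes. Log2 fold changes were above 0 for 22 of the 23 (50.9% of all genes), with a median of 0.67 against 0.01 over all genes. The list was chosen with earlier results of these data known, so these shares only describe it. The fibroblast markers, which share Col1a1 with this list, had a median of 1.50 there, and their part was not tested. In A537T-TRAMP at 30 weeks none of 22 passed, and Lox, the collagen cross-linking enzyme, read 315, 281 and 224 against 113, 148 and 124 (log2 fold change 1.08, SE 0.18, adjusted p = 0.235), while Cdkn2b and Adam12 stood at −0.28 and −0.96 with overlap. The fibroblast markers had a median of 0.82 in this comparison, and their part in the Lox value was not tested. At 10 weeks the smallest p-values belonged to contractile and stromal genes. Tagln, transgelin, read 1329.7, 1673 and 1595 in KO-TRAMP against 859.5, 1066 and 1028 (log2 fold change 0.64, SE 0.13, adjusted p = 0.574) and 1522, 2933 and 1829 in A537T-TRAMP against 766, 952 and 914 (log2 fold change 1.20, SE 0.24, adjusted p = 0.600). Acta2, smooth muscle actin, stood at 0.78 (SE 0.18, adjusted p = 0.659) in KO-TRAMP, and Postn, periostin, at 1.55 (SE 0.27, adjusted p = 0.600) in A537T-TRAMP. Leaving out library 4 moved the adjusted p of Postn just under the threshold, in a fit where 65 genes passed. The fibroblast markers had a median of 0.67 in A537T-TRAMP at 10 weeks, with 4 of 10 without overlap (13.4% of all genes), and their part was not tested. Tagln and Acta2 are also in the smooth muscle list, all 10 of whose genes were above 0 in both lines at 10 weeks. The early-response gene Junb stood at −0.53 and −0.29 at 10 weeks and Tgfbi at −0.56 in KO-TRAMP, below 0 with overlap.

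The 9 genes did not all vary together. Over the 18 libraries, with each value set against the WT-TRAMP mean of its table, the 36 pairs had a median Pearson r of −0.14 and ranged from −0.76 (Tgfbr1 with Tgfbr2) to 0.71 (Tgfbr1 with Ltbp1). These correlations are descriptions: libraries share tissue composition and group, and no p is given. Tgfbr2 and Inhba (0.68) and Inhba and Ltbp2 (0.67) also varied together, and Tgfb3 and Tgfbr3 varied in opposite directions (−0.66). Without library 5, a choice made after seeing the data, r was −0.50 for Tgfbr1 with Tgfbr2 and 0.48 for Tgfbr2 with Inhba. It was 0.76 for Tgfbr1 with Ltbp1, 0.64 for Inhba with Ltbp2 and −0.68 for Tgfb3 with Tgfbr3. For Tgfb3 with Tgfbr1 it was 0.77 without library 5 and 0.55 over 18 libraries.

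Of 12347 genes compared, those with the pattern nearest to a member were Paqr8 (0.985), Pigr (0.984) and Sdc4 (0.967) for Tgfbr2 and Stat5a (0.952), Prlr (0.952) and Wipf3 (0.949) for Tgfbr3. For Tgfb3 they were Atp2b1 (0.935), Fgl2 (0.930) and Lbh (0.922). Ltbp1 was nearest to Dact3 (0.919), the muscle filament gene Des (0.911) and Fhl1 (0.898), and Tgfbr1 to Tmsb4x (0.918), Uck2 (0.913) and Susd1 (0.902). For Tgfb2 the nearest were H2-T24 (0.877), Jpx (0.863) and Trim5 (0.855), for Tgfb1 Trip10 (0.865), Rnf169 (0.863) and Rab3gap2 (0.848), for Ltbp2 Serpinb1a (0.842), Cttn (0.791) and Fmnl1 (0.770), and for Inhba Anxa2 (0.822), Ppm1h (0.814) and Dirc2 (0.804). Library 5 held the largest deviation in size from the WT-TRAMP mean for Tgfbr2 (−2.05), Tgfb2 (−1.73) and Tgfb1 (1.50). These r values were taken over all 18 libraries and not without library 5.

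Against the marker lists, Tgfbr2 had an r of −0.89 with smooth muscle, Ltbp1 of 0.83 with endothelium and 0.81 with smooth muscle, and Tgfb3 of 0.81 with fibroblast markers. Tgfbr1 had an r of 0.73 with endothelium and −0.73 with luminal epithelium, the latter −0.59 without library 5. The 7 T cell markers lie near the floor: 3 to 6 of them were abundant enough to be tested, and in library 5 their mean level was 1.64 with 2 at 0. Their r with Tgfbr2, Tgfbr1 and Tgfb2 was 0.87, −0.75 and 0.66 over 18 libraries but 0.62, −0.49 and 0.41 without library 5. For Tgfb1, Inhba, Tgfbr3 and Ltbp2 the largest r in size over 18 libraries was −0.64 (Tgfbr3 with macrophage markers). With luminal epithelium, Tgfbr3 had an r of 0.56 over 18 libraries and 0.88 without library 5. For Tgfb3 these values were −0.62 and −0.76. None of these values say which cells hold the transcripts.

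**Figure D5:**
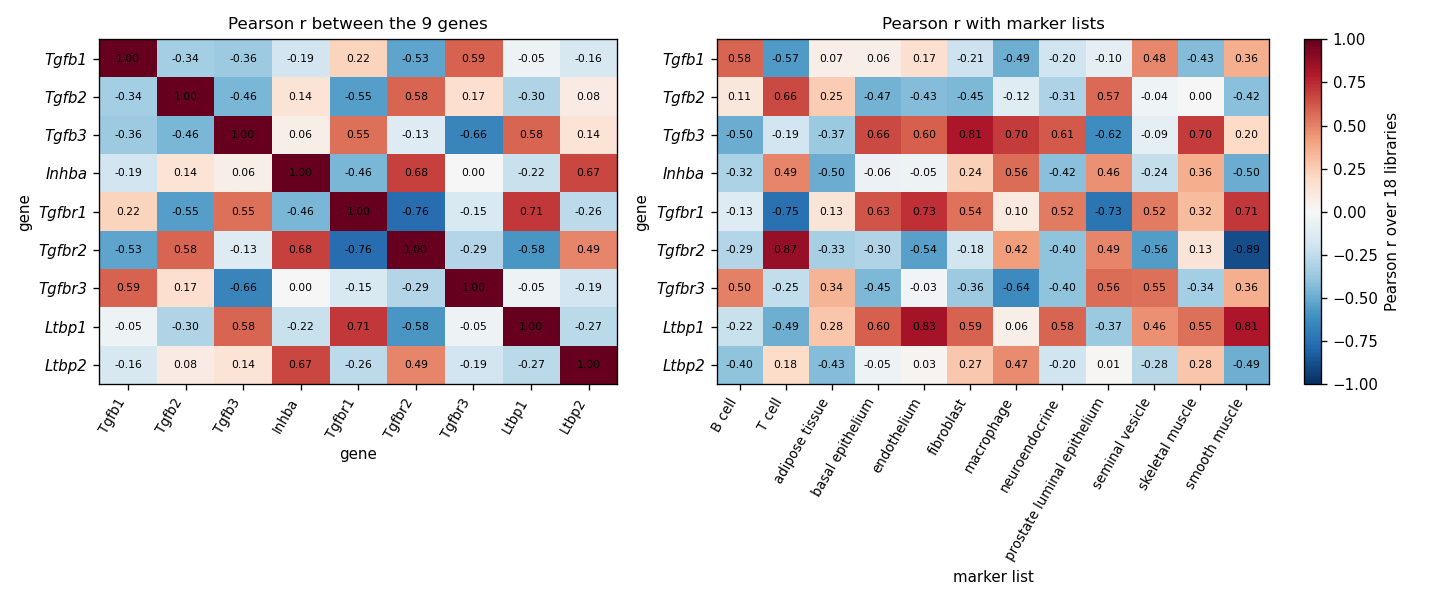
Pearson r over 18 libraries between the 9 genes (left) and between each gene and the mean of 12 marker lists (right), with each library set against the WT-TRAMP mean of its table. Red is positive and blue negative, and the largest value in size outside the diagonal is that of Tgfbr2 with smooth muscle (−0.89). That of Tgfbr2 with T cell markers (0.87) rests on genes near the floor and is 0.62 without library 5.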

How the data were processed

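Prostate RNA of 18 mice was sequenced as total RNA libraries. The authors trimmed reads (Trim Galore 0.4.1, cutadapt 1.18), aligned them with STAR 2.7.3a to GRCm38.p6, quantified genes with Salmon and divided estimated counts by DESeq2 1.26 size factors, and deposited these normalized values (a signal, not raw counts) in 4 tables of 6 libraries. All values came back as whole multiples of 1 step per library (tolerance 0.1), giving recovered counts and the depth per library. Normalized values and recovered counts of a WT-TRAMP library both differ between the 2 tables of an age, so comparisons stay within a table and recovered counts are estimates, not raw reads. The 4 tables of the authors' comparisons (mean, shrunken fold change, its SD and s-value) were not used. Genes with a mean of at least 10 were tested with limma 3.58.1 (R 4.3.3, two-sided, trend) and, on recovered counts, DESeq2 1.42.0 and edgeR 4.0.16. The fits were tested on simulated data. Exon lengths and gene positions are from GENCODE (GRCm38), an earlier release than the authors'. Of each pathway list, genes past the threshold were named, otherwise the pair with the smallest p in each direction. The members and lists were chosen with earlier results of these data known. Libraries of a group come from separate mice by the study's methods. A marker of the neuroendocrine list is not reported here, and the list was summed without it.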

Additional observations from a re-analysis of the deposited data

Results flagged for a closer look

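Tgfbr3, the betaglycan gene, lay on opposite sides of WT-TRAMP in the 2 mutant lines at 30 weeks: every KO-TRAMP library lay below every WT-TRAMP library and every A537T-TRAMP library lay above them. The log2 fold change was −0.66 in KO-TRAMP and 0.25 in A537T-TRAMP, so that the first minus the second was −0.92. The difference was not tested, because the lines stand in separately normalized tables that share the 3 WT-TRAMP mice. KO-TRAMP libraries 17 and 18, which hold the lowest Tgfbr3 values, also hold the highest neuroendocrine marker levels, and the part of those cells was not tested.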

How the results depend on the processing

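No paired analysis was possible because the column headers carry no replicate numbers. With 3 libraries a group and 9380174 to 14830104 recovered counts, differences of the lowest members, Tgfb1 and Inhba, were measured on few counts. Another pseudocount, no filter and TMM scaling left 0 of 9 members past the threshold in all 6 comparisons, and a mean of at least 50 left 0 of the 7 to 9 members it kept.

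With DESeq2, 1 member passed in KO-TRAMP at 10 weeks and 1 at 30 weeks, and the counts of all genes past the threshold went from 2, 1, 36 and 0 (KO-TRAMP and A537T-TRAMP at 10 weeks, then at 30 weeks) to 83, 148, 805 and 166. With edgeR they were 0, 0, 15 and 0. A mean of at least 50 gave 0 and 0 at 10 weeks. For the difference between ages in KO-TRAMP, a pseudocount of 5 and no filter each gave 1 gene in place of 0. DESeq2 and edgeR were not run for the differences between ages. The direction turned with edgeR for Tgfb2 in KO-TRAMP at 10 weeks (0.01) and with DESeq2 and edgeR for Ltbp2 in A537T-TRAMP at 30 weeks (−0.04 both). The cause was not tested.

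Leaving out 1 library at a time gave 0 to 3 members in KO-TRAMP at 30 weeks and 0 to 2 for its difference between ages, both highest without library 16, and 0 in the other 4 comparisons. The counts of all genes ranged from 1 to 9 (highest without library 3) in KO-TRAMP and 0 to 65 (without library 4) in A537T-TRAMP at 10 weeks, from 0 to 3064 (without library 16) in KO-TRAMP and 0 to 145 (without library 11) in A537T-TRAMP at 30 weeks, and from 0 to 1944 (without library 16) and 0 to 20 (without library 11) for their differences between ages.

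Log2 fold changes near 0 turned direction when 1 library was left out. In KO-TRAMP at 10 weeks these were Tgfb2 (−0.26 to 0.12), Inhba (−0.10 to 0.25), Tgfbr1 (−0.02 to 0.11), Ltbp2 (−0.11 to 0.26), Thbs1 (−0.51 to 0.15) and Itgav (−0.13 to 0.05), and in A537T-TRAMP Tgfb3 (−0.07 to 0.26), Inhba (−0.19 to 0.59), Ltbp2 (−0.27 to 0.07), Itgb5 (−0.17 to 0.11) and Junb (−0.51 to 0.03). At 30 weeks they were Tgfbr2 in KO-TRAMP (−0.42 to 0.17) and, in A537T-TRAMP, Tgfbr1 (−0.16 to 0.01), Tgfbr2 (−0.24 to 0.02), Ltbp1 (−0.18 to 0.32) and Ltbp2 (−0.19 to 0.26). Of the differences between ages, Ltbp1 in KO-TRAMP (−0.30 to 0.46) and Tgfb2 (−0.33 to 0.34), Inhba (−0.01 to 0.77) and Ltbp2 (−0.10 to 0.35) in A537T-TRAMP turned. Of 618 single-gene values under other settings, 600 kept direction and side of the threshold, 3 turned direction, 4 lost and 11 gained the call. Of 774 under left-out libraries, 696 kept both, 47 turned direction, 19 lost and 12 gained the call.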
